A study of Mus musculus with 3 samples.

Results

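Transcripts of 8 genes of the p53 pathway and of the cell cycle inhibitor families were followed in single cells of mouse intestinal organoids: Trp53, Mdm2, Cdkn1a, Ccng1, Bax, Cdkn1b, Cdkn2a and Cdkn2b. They were chosen by symbol among the 32285 genes counted, all 8 were found, and all 8 passed the filter on low values described below. Organoids are epithelial cells grown as small bodies in a gel. The study asked how loss of the Wnt pathway transcription factor Lef1 alters Apc-mutant intestinal epithelium, and the comparisons here are LApc against WT and LApcL against LApc, with LApcL against WT beside them. These comparisons share libraries and are not independent of each other.

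All mice were of strain C57BL/6, were 7 to 8 weeks old and received 2 doses of tamoxifen at 2 mg, WT mice included. WT organoids are labelled with the genotype WT and were taken 21 days after tamoxifen. In another experiment of the study the mice called WT carried the Cre driver, and whether those behind this library did is not stated for it. LApc organoids had the genotype Lgr5-CreERT2;Apc fl/fl and were taken at 29 days. LApcL organoids carried that same driver and Apc allele together with Lef1 fl/fl and were taken at 21 days. CreERT2 is a recombinase that tamoxifen activates, and here it is made where the stem cell gene Lgr5 is active, so the alleles are deleted in those cells and carried on by their progeny. All organoids were at passage 3, day 6, were digested with trypsin for 40 minutes and were passed through a 20 µm mesh. The methods describe LApc and LApcL cultures kept without added growth factors at first, with combinations of Wnt3a, R-spondin1, noggin and epidermal growth factor added from passage 3 in some experiments. Whether the sequenced passage 3 organoids received any of these, and the medium of the WT organoids, are not given in the sources used here. Each group was 1 library, and nothing says that it held more than 1 mouse or culture.

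p53, the product of Trp53, is a transcription factor that is kept low by the ubiquitin ligase Mdm2 and that accumulates after DNA damage and other stress. Its best known targets stop the cell cycle (Cdkn1a), feed back on p53 itself (Mdm2, Ccng1) or open the mitochondrial membrane in cell death (Bax). Cyclin-dependent kinases are restrained by a pair of inhibitor families: the Cip/Kip proteins, to which Cdkn1a and Cdkn1b belong, act on several cyclin-kinase complexes, and the Ink4 proteins, encoded by Cdkn2a and Cdkn2b, act on Cdk4 and Cdk6. In the normal intestine, proliferation is confined to the crypt, and differentiated cells of the villus have left the cell cycle.

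The sequence of Cdkn2a matters for what its counts can show, because its 2 annotated transcripts encode unrelated proteins in different reading frames. The gene lies at chr4:89274471-89294653 on the reverse strand of GRCm38 (ENSMUSG00000044303). Cdkn2a-201 encodes the Ink4a inhibitor of 168 residues and starts in a first exon at chr4:89281986-89282192. Cdkn2a-202 encodes Arf, a protein of 169 residues that binds Mdm2, and starts 12461 bases upstream in a first exon at chr4:89294334-89294653. The first 60 coding bases of each, from GENCODE M21, are shown 5′ to 3′ with the start codon in capitals, to make plain that the transcripts share no coding start.
Cdkn2a-201 (Ink4a), chr4:89282052-89282111, reverse strand: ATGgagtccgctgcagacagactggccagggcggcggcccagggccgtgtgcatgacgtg
Cdkn2a-202 (Arf), chr4:89294464-89294523, reverse strand: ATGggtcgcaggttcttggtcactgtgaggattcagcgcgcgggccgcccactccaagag
The remaining 2 exons are common to both: exon 2 at chr4:89276645-89276985, and the last exon, which ends at position 89274471 in Cdkn2a-201 and shares 234 bases with the last exon of Cdkn2a-202. In all, 575 bases are shared, and 277 and 320 are particular to Cdkn2a-201 and Cdkn2a-202. Because the reads come from 3′ ends of mRNA and are counted per gene, the counts given below are for Ink4a and Arf together. Cdkn2b lies beside it at chr4:89306299-89311039 on the same strand.

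The promoter windows of the 8 genes, 250 bases before to 50 bases after each annotated start (RefSeq, GRCm38.p6; 10 windows), were searched for the p53 consensus site of 20 bases, a sequence that reads the same on both strands. Its core C and G letters had to be exact, with at most 1 mismatch elsewhere. It was found in 22 of 32851 windows (0.0670%), and 2 of these belonged to the genes studied here, the upstream Cdkn1a window and the Ccng1 window. Each is shown with 20 bases on either side, 5′ to 3′ on the strand of the gene and with the match in capitals, as the matches found among the 8 genes. Bax and Mdm2, whose windows held no match, varied with Cdkn1a from cell to cell below as well.
Cdkn1a, chr17:29090908-29090967, forward strand: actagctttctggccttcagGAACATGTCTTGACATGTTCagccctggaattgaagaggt
Ccng1, chr11:40755442-40755501, reverse strand: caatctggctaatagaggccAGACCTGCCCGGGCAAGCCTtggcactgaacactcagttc
The Cdkn1a match lies 51 to 32 bases before the start and the Ccng1 match 195 to 176 bases before it. A match is a description of the letters and not a measured binding site. Among 43 windows of other p53 target genes, 2 held the consensus (Gtse1 and Rps27l).

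Cells were taken as barcodes found in 1 library only, with at least 10000 UMIs (unique molecular identifiers, each tagging 1 captured RNA molecule) and at most 20% of UMIs from mitochondrial genes. This left 1208 of 11411 WT barcodes, 2161 of 10706 LApc barcodes and 1931 of 12068 LApcL barcodes, with medians of 38073.5, 34377 and 32584 UMIs and between 56.1% and 76.4% of each library's UMIs. The barcodes left out include 3195 that occurred in all 3 libraries. All 7 epithelial markers were detected in every library, and 5 endothelial, 5 immune and 4 fibroblast markers summed to at most 24.4 UMIs per 1000000 (CPM). The 11 enterocyte markers summed to 21955 CPM in WT against 13.4 in LApc and 15.95 in LApcL, where Alpi and Apoa4 were at 0. Other lineages differed too, with summed Paneth markers at 122, 1658 and 4844 CPM, goblet markers at 1833, 466 and 995 CPM and enteroendocrine markers at 973, 14.99 and 4.25 CPM in the same order. Their part in the differences below was not tested beyond the enterocyte split. Cells with at least 1% of UMIs from those markers (enterocyte-rich) made up 721 of 1208 WT cells and none of the others, and 422 WT cells lay between 0.5% and 2%, so the class is a range of a score and not a sharp type. Apc was counted at 18.96, 95.3 and 99.2 CPM and Lef1 at 1.08, 82.9 and 56.8 CPM, and since the 3′ end of a deleted gene may still be transcribed these levels do not measure how complete the deletions were. Xist was high in LApc only (1389 CPM, against 0.662 and 0.570), so genotype, days after tamoxifen and the sex of the mouse cannot be told apart between LApc and the other libraries.

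To compare cells at equal depth, 10000 UMIs were drawn from each, and levels are given as CPM, the UMIs of a gene summed over cells per 1000000. At this depth 100 CPM is 1 UMI per cell on average. Brackets hold exact 95% intervals that reflect counting error alone, and how far another mouse or culture would differ is unknown. For levels and ratios they leave out variation from cell to cell beyond counting noise. With 1 library per group no test between groups was possible. A gene was called past 1.5-fold on log2(CPM + 1), among 12895 genes with a mean of at least 1 CPM. Because levels differ in transcript capture, they are compared between libraries and not between genes.

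Trp53 (ENSMUSG00000059552; chr11:69580359-69591873, forward strand) was counted at 40.0 CPM (36.5 to 43.7) in WT, while LApc cells held 145 CPM (140 to 151) and LApcL cells 145 CPM (140 to 150). At least 1 UMI was found in 30.5%, 72.2% and 72.6% of cells at equal depth, and in 63.7%, 94.0% and 91.7% without drawing down. The LApc level was 3.64 times that of WT (3.30 to 4.01), and LApc and LApcL did not differ beyond their intervals (ratio 0.997, 0.947 to 1.05). In WT the gene was lowest in enterocyte-rich cells, at 23.7 CPM against 64.1 CPM in the other WT cells, and the LApc level was 2.27 times (2.02 to 2.56) that of the latter.

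Mdm2 (ENSMUSG00000020184; chr10:117688875-117710758, reverse strand), the ligase that restrains p53, was counted at 47.0 CPM (43.2 to 51.1) in WT, while LApc cells held 72.2 CPM (68.7 to 75.9) and LApcL cells 56.9 CPM (53.6 to 60.4). In CPM, WT was thus lowest and LApc highest, with no overlap of intervals. With the median-of-ratios scaling given below, LApcL lay below WT for Mdm2 (log2 ratio -0.24) and for Cdkn1a (-0.23). The LApc level was 1.54 times that of WT, the LApcL level 1.21 times that of WT and 0.788 times that of LApc (0.729 to 0.852). A UMI was found in 33.9%, 44.0% and 39.7% of cells at equal depth, in the same order, and in 72.2%, 79.9% and 74.2% without drawing down.

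Cdkn1a (ENSMUSG00000023067; chr17:29090976-29100727, forward strand) followed the same order, with 231 CPM (223 to 240) in WT, while LApc cells held 367 CPM (359 to 375) and LApcL cells 282 CPM (274 to 289). The share of cells with a UMI lay within a few percentage points, at 76.1% (73.6 to 78.5), 74.5% (72.6 to 76.3) and 71.9% (69.8 to 73.9), and was highest in WT, where the level was lowest. The libraries thus differed in how many UMIs the positive cells held, and 5 or more were found in 13.99%, 25.6% and 20.2% of cells. The highest single cell held 18 UMIs among WT, 45 among LApc and 36 among LApcL cells. Among WT cells the gene was higher in enterocyte-rich cells, at 268 CPM against 177 CPM in the rest.

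Ccng1 (ENSMUSG00000020326; chr11:40748552-40755311, reverse strand), which encodes cyclin G1, was counted at 46.1 CPM (42.4 to 50.1) in WT, while LApc cells held 96.3 CPM (92.2 to 100.6) and LApcL cells 105 CPM (100.4 to 109.5). Bax (ENSMUSG00000003873; chr7:45461697-45466898, reverse strand), which promotes cell death, stood at 151 CPM (144 to 158), 315 CPM (308 to 323) and 282 CPM (275 to 290). Each was 2.09 times higher in LApc than in WT. Positive cells were 33.1%, 51.4% and 54.3% for Ccng1 and 73.8%, 91.7% and 88.5% for Bax at equal depth, and 69.0% to 82.7% and 95.9% to 98.2% without drawing down. Between LApcL and LApc, Bax had a ratio of 0.896 (0.864 to 0.929) and Ccng1 of 1.09 (1.02 to 1.16), whose log2 value turned from 0.12 to -0.04 without drawing down.

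Cdkn1b (ENSMUSG00000003031; chr6:134920401-134925513, forward strand), a Cip/Kip inhibitor that is known for keeping resting cells out of the cycle, was with Cdkn2b the exception among the 8, having its highest level in WT. WT cells held 61.4 CPM (57.1 to 66.0), LApc cells 44.2 CPM (41.5 to 47.1) and LApcL cells 51.2 CPM (48.0 to 54.5), with 40.6%, 33.0% and 38.1% of cells positive (76.9%, 71.3% and 71.7% without drawing down). The difference was larger without enterocyte-rich cells, which had 40.5 CPM against 92.4 CPM in the other WT cells, and the LApc ratio moved from 0.720 (0.654 to 0.794) to 0.479 (0.428 to 0.537), past 1.5-fold.

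Cdkn2a was nearly absent from WT and present in both Apc-targeted libraries. It had 1 UMI in 1208 WT cells (0.0828 CPM, 0.00210 to 0.461), whereas 532 UMIs were counted in LApc cells (24.6 CPM, 22.6 to 26.8) and 282 UMIs in LApcL cells (14.6 CPM, 12.9 to 16.4). The share of positive cells was 0.0828% in WT, compared with 15.5% (13.96 to 17.05) for LApc and 11.0% (9.67 to 12.5) for LApcL. None of 721 enterocyte-rich WT cells was positive at equal depth, and 3 counts over that number of cells set an upper share of 0.416%. The ratio of LApc to WT was 297, with a counting interval of 53.1 to 11768 that reflects the single WT UMI. Barcodes found in all 3 libraries, which were left out of the cells, had 2, 2 and 0 Cdkn2a UMIs at 1000 UMIs each (2807, 2266 and 2387 barcodes), where 2.45% of LApc and 1.55% of LApcL cells were positive at that depth. Trp53 in these barcodes was at 91.2, 94.9 and 86.3 CPM in WT, LApc and LApcL. They are no measure of free RNA, whose part in the share of positive cells was not tested. Per cell, Cdkn2a was sparse: the highest cell held 7 UMIs in both Apc-targeted libraries, and without drawing down 31.1% of LApc and 26.6% of LApcL cells were positive.

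Cdkn2b (ENSMUSG00000073802), the neighbouring Ink4 gene, ran the other way. WT cells held 66.0 CPM (61.5 to 70.7), LApc cells 14.8 CPM (13.2 to 16.5) and LApcL cells 11.5 CPM (10.1 to 13.2). Positive cells were 39.7%, 12.4% and 9.79%, and 64.0%, 33.4% and 27.9% without drawing down. Much of the WT level lay in enterocyte-rich cells, which stood at 93.1 CPM (86.2 to 100) against 25.9 CPM (21.6 to 30.8) in the other WT cells. Against those other cells the LApc ratio was 0.571 (0.463 to 0.707) in place of 0.224 (0.196 to 0.255), still lower by more than 1.5-fold. Over WT cells Cdkn2b had the strongest relation to the summed enterocyte markers of the 8 genes (Pearson r = 0.37, 1208 cells).

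**Figure D1:**
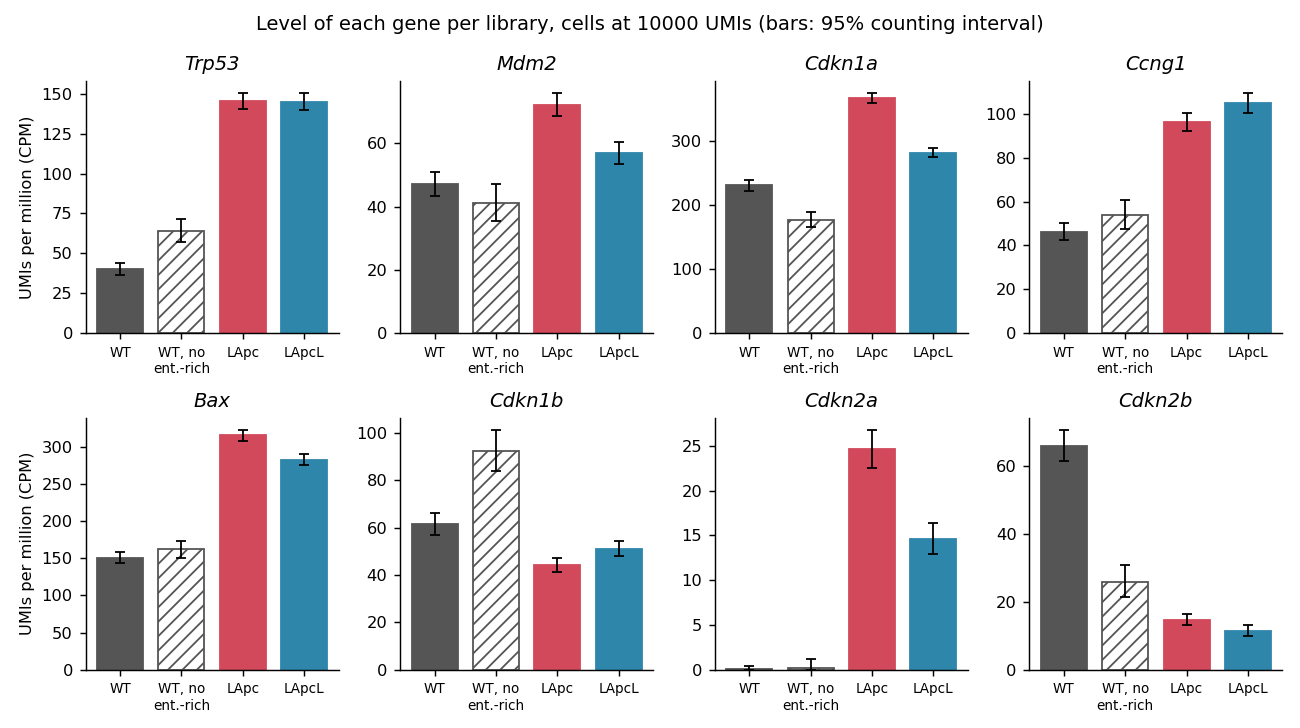
Level of each gene in CPM (y axis, from 0) in WT, in WT without enterocyte-rich cells (hatched), in LApc and in LApcL, all cells at 10000 UMIs; error bars are exact 95% Poisson intervals. Cdkn2a is near 0 in WT and at 24.6 and 14.6 CPM in LApc and LApcL, Cdkn2b runs the other way from 66.0 to 11.5 CPM, and Trp53 stands at 145 CPM in both Apc-targeted libraries.

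Set against the whole transcriptome, the LApc and WT libraries differed widely, so single ratios have to be read against that shift. Of the 8 genes, 6 were past 1.5-fold higher in LApc (Trp53, Mdm2, Cdkn1a, Ccng1, Bax and Cdkn2a) and 1 lower (Cdkn2b), where 44% of all tested genes were higher and 14.9% lower. The median log2 ratio over all tested genes was 0.46, and the members' median was 0.86. Among all genes Trp53 ranked at the 90.1 percentile, Cdkn2a at the 99.01, Ccng1 at the 76.3, Bax at the 76.6, Cdkn1a at the 60.1 and Mdm2 at the 57.2. The ratios of Mdm2 and Cdkn1a are thus close to that of a middle gene, while Cdkn1b (17.1) and Cdkn2b (4.47) lie near the lower end. Mdm2 (log2 ratio 0.61) was short of 1.5-fold with the highest doublet scores removed (0.54), with at most 10% mitochondrial UMIs (0.54) and with a pseudocount of 10 CPM (0.53). With size factors by the median of ratios, which bring that shift to 0.015, the log2 ratio was 1.35 for Trp53, 0.12 for Mdm2, 0.17 for Cdkn1a, 0.56 for Ccng1 and 0.57 for Bax, and only Trp53 and Cdkn2a were past 1.5-fold higher, with Cdkn1b joining Cdkn2b on the lower side. Under that scaling 24.7% of all genes were higher and 24.9% lower. Without enterocyte-rich cells 6 were higher and 2 lower, where 32.7% and 14.5% of all genes were.

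Between LApcL and LApc the 8 genes differed little. Cdkn2a alone was past 1.5-fold, with a ratio of 0.593 (0.512 to 0.687) and a log2 ratio of -0.72, where 7.69% of all genes were higher and 9.57% lower. That call was lost with the highest doublet scores removed (log2 ratio -0.49), with a pseudocount of 10 CPM (-0.49) and with a 2-fold call, and the direction was the same under every alternative run. Cdkn1a (0.768, 0.742 to 0.795), Mdm2 and Cdkn2b (0.782, 0.656 to 0.931) were lower in LApcL by less than 1.5-fold with intervals below 1, and Cdkn1b was higher (1.16, 1.06 to 1.27). At the same time Mki67, a marker of cycling cells, was 1.82 times higher in LApcL, at 175 CPM against 96.1 CPM, and 44.1% of LApcL cells against 25.7% of LApc cells had an Mki67 UMI. The study described similar proportions of proliferating and Ki67-positive cells in its LApc and LApcL organoids, which differs from these values. Its cells for that statement were not matched to the deep barcodes of 1 library used here. LApc held 298 cells with a UMI of Npy, a gene with no UMI in LApcL or WT, and these had less Cdkn1a (263 against 384 CPM), Cdkn2a (13.1 against 26.5) and Ccng1 (64.8 against 101.4) than the other 1863 LApc cells. Without them the log2 ratio of LApcL to LApc was -0.82 for Cdkn2a and -0.44 for Cdkn1a.

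Set directly against WT, LApcL had 4 of the 8 genes past 1.5-fold higher (Trp53, Cdkn2a, Ccng1 and Bax) and 1 lower (Cdkn2b), where 44.5% and 15.9% of all genes were. Without enterocyte-rich cells 5 were higher and 2 lower, where 33% and 14.7% of all genes were. Cdkn1a and Mdm2 were higher by 1.22 and 1.21 times, but with median-of-ratios scaling their log2 ratios turned to -0.23 and -0.24. Under that scaling Bax was no longer past 1.5-fold (0.38) and Cdkn1b was lower (-0.77), giving 3 higher and 2 lower, where 24.7% and 26.1% of all genes were.

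**Figure D2:**
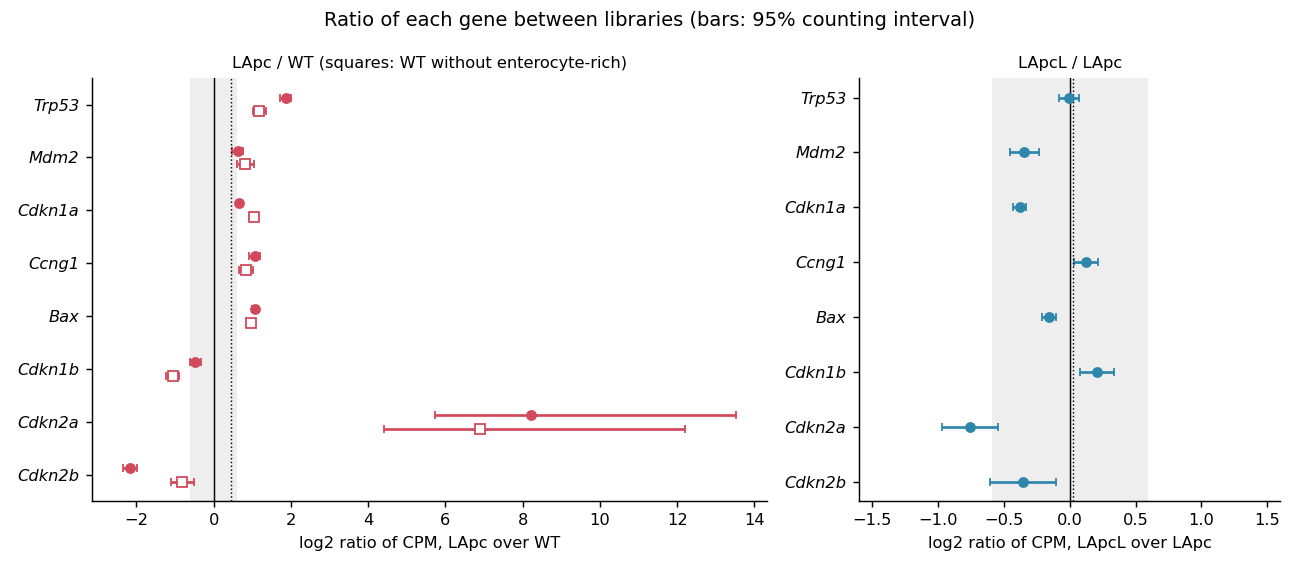
Log2 ratio of CPM (no pseudocount) of each gene for LApc over WT (left; circles all cells, open squares WT without enterocyte-rich cells) and LApcL over LApc (right), with exact 95% counting intervals; the grey band is within 1.5-fold and the dotted line is the median of all tested genes. The Cdkn2a interval on the left is wide because WT had 1 UMI, and on the right Cdkn2a, with a ratio of 0.593, is the gene outside the band.

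The relation of each gene to proliferation was asked within each library by comparing cells with and without an Mki67 UMI: 278 and 930 in WT, 555 and 1606 in LApc, and 851 and 1080 in LApcL. In WT, Trp53 stood at 72.7 CPM in Mki67-positive cells and 30.2 CPM in Mki67-zero cells, a ratio of 2.40 (2.00 to 2.89). Cdkn1b (1.73, 1.48 to 2.02) and Ccng1 (1.66, 1.39 to 1.99) were also higher in positive cells, and Cdkn2b was lower (0.363, 0.284 to 0.459). Cdkn1b, with a log2 ratio of 0.78, was short of 1.5-fold with the second random seed (0.53), with no mitochondrial limit (0.54), with the highest doublet scores removed (0.54) and with Top2a in place of Mki67 (0.56). These 4 of 8 genes compare with 16.4% of all genes higher and 12.1% lower. Enterocyte-rich cells, of which 12.5% had an Mki67 UMI against 38.6% of the rest, move with this contrast. Among the other WT cells 1 gene was past 1.5-fold, Trp53 at 1.83 (1.46 to 2.30), where 11.7% of genes were higher and 13.8% lower.

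In LApc, the ratio of Trp53 was 1.15 (1.07 to 1.25), with 161 CPM in Mki67-positive and 140 CPM in Mki67-zero cells. The genes past 1.5-fold were Ccng1 (134 against 83.4 CPM, ratio 1.602, 1.46 to 1.75) and Cdkn2a (34.6 against 21.2 CPM, ratio 1.63, 1.36 to 1.956), where 8.21% of all genes were higher and 13.9% lower. Neither held when the UMIs were drawn with a second random seed, which gave log2 ratios of 0.58 and 0.38 in place of 0.67 and 0.68. In LApcL 0 of 8 genes were past 1.5-fold, where 4.76% of genes were higher and 7.2% lower, and Ccng1 had a ratio of 1.14 (1.04 to 1.24). All 13 genes of a list for the G2 and M phases were past 1.5-fold higher in Mki67-positive cells in each library. Of 14 S phase genes 13 were in WT, 7 in WT without enterocyte-rich cells, 14 in LApc and 10 in LApcL. Mki67 had r of 0.78, 0.81 and 0.79 with the summed G2 and M genes in WT, LApc and LApcL. With the summed S phase genes r was 0.37, 0.40 and 0.33. Cells without an Mki67 UMI at this depth can thus still be cycling.

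The inhibitors were thus not confined to cells without an Mki67 UMI. For Cdkn1b, which restrains the cycle, the ratio of Mki67-positive to Mki67-zero cells was 1.73 in WT, 1.25 (1.08 to 1.43) in LApc and 1.21 (1.07 to 1.38) in LApcL. The values in LApc and LApcL were short of 1.5-fold, as was that in WT without enterocyte-rich cells (1.33, 1.10 to 1.61). Cells with a Cdkn2a UMI had an Mki67 UMI in 37.7% of cases in LApc (126 of 334 cells, 32.5 to 43.2), against 23.5% of Cdkn2a-zero cells, and in 49.8% in LApcL (106 of 213, 42.9 to 56.7), against 43.4%. In LApcL the direction was not stable: the log2 ratio of Cdkn2a was 0.17 but turned below 0 under 6 alternatives, among them the second seed (-0.26), no drawing down (-0.22) and no mitochondrial limit (-0.31). The joint counts were looked at after the values had been seen. Cdkn1a went different ways: its ratio was 0.898 (0.819 to 0.984) in WT, 1.24 (1.18 to 1.30) in LApc and 0.829 (0.785 to 0.876) in LApcL. Over cells its correlation with Mki67 was weak in each library (Pearson r = -0.02, 0.08 and -0.06). Droplets holding 2 cells can place a pair of genes in 1 barcode, and their part in these values was not tested beyond removing the highest doublet scores, which left the log2 ratio of Cdkn1a at 0.23 in LApc.

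**Figure D3:**
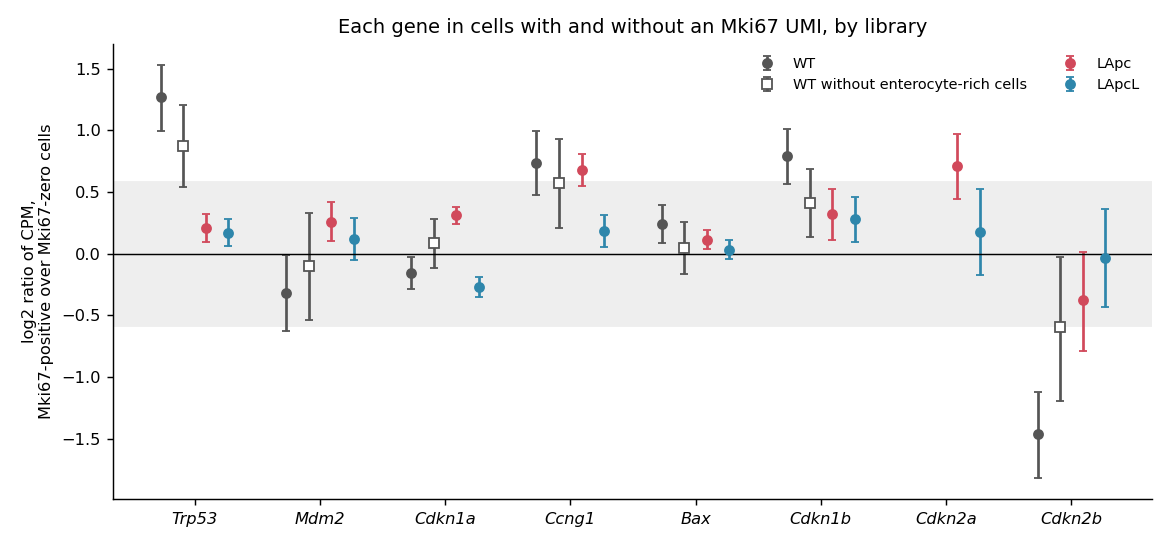
Log2 ratio of CPM in Mki67-positive over Mki67-zero cells (y axis) for each gene in WT, WT without enterocyte-rich cells (open squares), LApc and LApcL, with exact 95% counting intervals; the grey band is within 1.5-fold, and Cdkn2a is not shown for WT, where it had 1 UMI. Trp53 and Cdkn1b lie highest in WT, Cdkn2b lies lowest in WT, and Cdkn1a is above 0 in LApc (ratio 1.24) and below 0 in LApcL (0.829).

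Cdkn1a varied widely from cell to cell. Its variance over mean, which is 1 for pure counting noise and tends to be larger at higher levels, was 2.58 in WT, 7.34 in LApc and 4.92 in LApcL, and genes within 1.5-fold of its level had medians of 1.47, 1.62 and 1.39. Its value ranked at the 84.0, 95.3 and 95.8 percentile of those genes. Trp53, by contrast, was near them in LApc (1.22 against 1.29) and LApcL (1.22 against 1.23). Cdkn2a ranked at the 95.5 percentile in LApc and the 97.2 in LApcL among genes of its level, and Cdkn1b at the 93.9 in WT. Trp53 was therefore spread over the Apc-targeted cells about as evenly as other genes of its level, while both Cdkn1a and Cdkn2a were more concentrated in some cells.

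In the Apc-targeted libraries, cells rich in Cdkn1a tended to be rich in the p53 targets Ccng1, Bax and Mdm2 and in the inhibitor Cdkn2a. Over 2161 LApc cells the Pearson r of Cdkn1a was 0.32 with Ccng1, 0.30 with Bax, 0.24 with Cdkn2a and 0.23 with Mdm2. Over 1931 LApcL cells the values were 0.32, 0.27, 0.17 and 0.20. Over 1208 WT cells r was 0.09 with Ccng1, 0.08 with Bax and 0.14 with Mdm2, and without enterocyte-rich cells 0.14, 0.16 and 0.15 over 487 cells. The WT value for Ccng1 was -0.01 with at most 10% mitochondrial UMIs. With Trp53 itself r was -0.14, 0.08 and -0.02 in WT, LApc and LApcL, and with Cdkn1b -0.06, 0.00 and 0.00. Correlations over cells are descriptions, because the cells share a library and their counts are sparse, and the differing levels of the libraries were not matched.

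The correlations were also ranked against those of all genes at 20 CPM or more. Of 6170 such genes in LApc, the gene most correlated with Cdkn1a was Phlda3 (r = 0.38), a p53 target that restrains Akt, followed by Gdf15 (0.33), a secreted factor induced by stress, Ccng1 and Bax, with Cdkn2a in place 10 and Mdm2 in place 15. Of 6265 genes in LApcL the first was Ccng1, followed by Phlda3 (0.32) and Gdf15 (0.31), with Bax in place 6 and Mdm2 in place 38. In WT, Mdm2 was in place 194, Ccng1 in place 580 and Bax in place 846 of 5138 genes, and Gdf15 in place 323. Among the WT cells that were not enterocyte-rich they lay nearer the top, with Gdf15 in place 14, Bax in place 68, Mdm2 in place 85 and Ccng1 in place 114 of 5490 genes. Of a list of 38 other p53 targets, 22 reached 20 CPM in LApc and 16 of these had r of 0.1 or more, where 3.7% of all genes did. In LApcL 16 of 24 did, where 4.26% of all genes did, and in WT 3 of 13, where 9.73% did. Among WT cells that were not enterocyte-rich 5 of 16 did, where 8.16% of all genes did. The 20 CPM filter was applied within each library, so these counts are not over the same targets. Phlda3, for example, stood at 80.5 CPM in LApc and 4.72 CPM in WT. Targets with r under 0.1 in both Apc-targeted libraries were Xpc, Apaf1, Triap1, Cd82 and Notch1.

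Grouping cells by their Cdkn1a UMIs gives the same picture as levels. In LApc the 552 cells without Cdkn1a had 49.6 CPM of Mdm2, 52.5 CPM of Ccng1, 232 CPM of Bax and 6.16 CPM of Cdkn2a. The 205 cells with 10 or more Cdkn1a UMIs (9.49% of cells) had 180 CPM of Mdm2 (162 to 199), 211 CPM of Ccng1 (192 to 232), 484 CPM of Bax (455 to 515) and 58.5 CPM of Cdkn2a (48.5 to 70.0). For Mdm2, Ccng1, Bax and Cdkn2a each step between these groups was upward. In LApcL the 106 such cells (5.49%) had 120 CPM of Mdm2, 225 CPM of Ccng1, 463 CPM of Bax and 46.2 CPM of Cdkn2a, against 40.1, 56.9, 214 and 7.37 CPM in the 543 cells without Cdkn1a.

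Phlda3 and Gdf15, outside the 8 genes, rank near the top by r with Cdkn1a in these same cells, so their levels over the groups restate that relation. Targets with r under 0.1, such as Xpc and Notch1, were not grouped in this way. Phlda3 went from 38.8 to 230 CPM in LApc and from 30.2 to 143 CPM in LApcL, and Gdf15 from 40.8 to 372 CPM and from 28.4 to 334 CPM. Eda2r, a receptor of the TNF receptor family, went from 3.80 to 29.8 CPM in LApc. Over the same groups Trp53 went from 128 CPM (118 to 137) in LApc cells without Cdkn1a to 167 CPM (150 to 185) in those with 10 or more UMIs, a smaller step than those of the targets above. It lay between 132 and 153 CPM in LApcL, and in WT it went from 53.6 to 25.0 CPM. Cdkn1b lay between 43.4 and 45.9 CPM in LApc. Cdkn2b went from 11.4 to 34.6 CPM in LApc, from 7.73 to 23.6 CPM in LApcL and from 49.1 to 54.2 CPM in WT. The stem cell gene Lgr5 ran against Cdkn1a in LApc, from 50.9 CPM in cells without Cdkn1a to 14.1 CPM in those with 10 or more UMIs. The same groups had 121 and 80.2 CPM of Lgr5 in LApcL, and 29.8 and 12.5 CPM in WT. In WT 24 cells (1.99%) had 10 or more Cdkn1a UMIs, with 142 CPM of Mdm2 (98.1 to 198), 225 CPM of Bax (169 to 294), 83.3 CPM of Gdf15 (50.9 to 129) and 41.7 CPM of Ccng1 (20.0 to 76.6). The 289 WT cells without Cdkn1a had 35.3 CPM of Mdm2, 145 CPM of Bax, 26.0 CPM of Gdf15 and 38.4 CPM of Ccng1. Gdf15 was higher at each step in WT as well, and Ccng1 stood at 75 CPM (58.7 to 94.5) in the 96 cells with 6 to 9 UMIs.

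**Figure D4:**
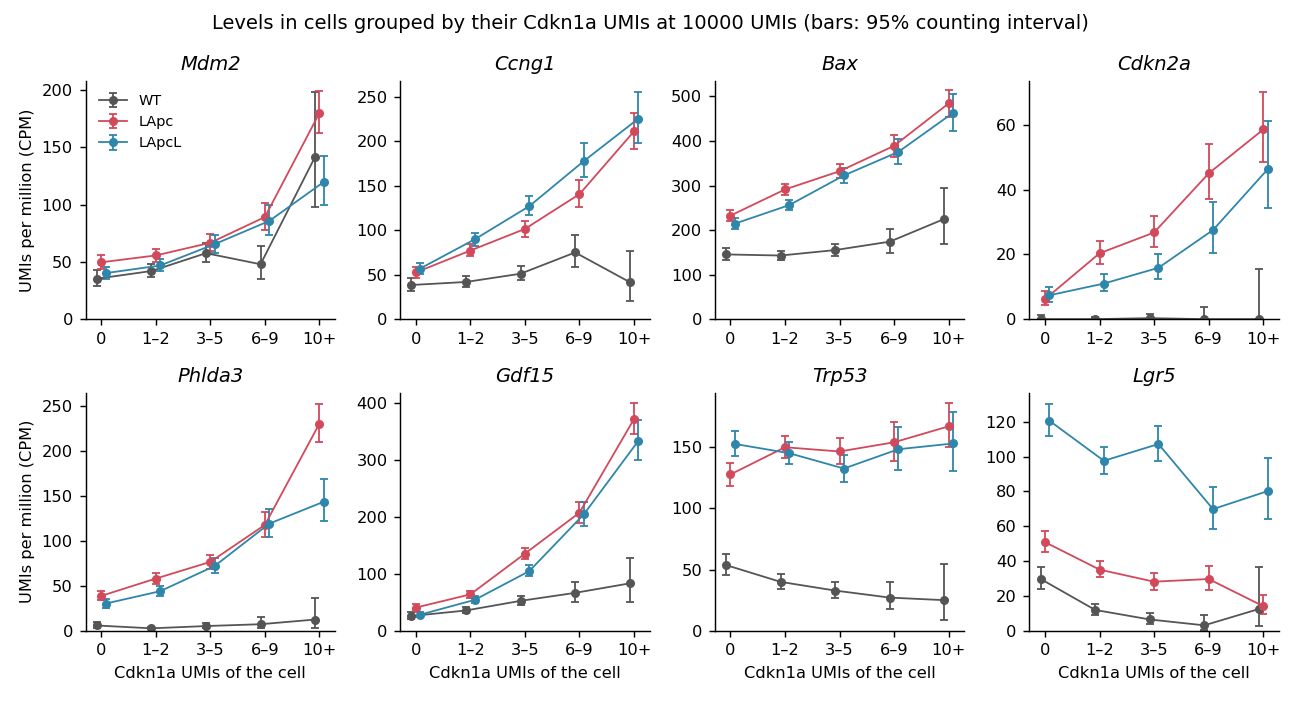
Levels in CPM (y axis, from 0) of 8 genes in cells grouped by their Cdkn1a UMIs (x axis) in WT, LApc and LApcL, with exact 95% Poisson intervals. Ccng1, Bax, Cdkn2a, Phlda3 and Gdf15 climb with Cdkn1a in LApc and LApcL (Phlda3 from 38.8 to 230 CPM in LApc), Trp53 lies between 128 and 167 CPM in LApc, and Lgr5 declines in LApc from 50.9 to 14.1 CPM.

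Lgr5-positive cells had less Cdkn1a than Lgr5-zero cells in each library: 141 against 241 CPM in WT (116 and 1092 cells), 266 against 396 CPM in LApc (482 and 1679 cells) and 249 against 318 CPM in LApcL (1009 and 922 cells). In WT this contrast moves with the enterocyte-rich cells, which had 268 CPM of Cdkn1a against 177 CPM in the rest and held few of the Lgr5-positive cells. Among the other WT cells Cdkn1a was at 123 CPM (102 to 146) in Lgr5-positive and 191 CPM (177 to 205) in 386 Lgr5-zero cells. Ccng1 was close by Lgr5 in LApc (96.3 against 96.4 CPM). Cdkn2a was 23.9 against 24.8 CPM there, and 11.5 CPM in Lgr5-positive and 18.004 CPM in Lgr5-zero cells in LApcL.

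**Figure D5:**
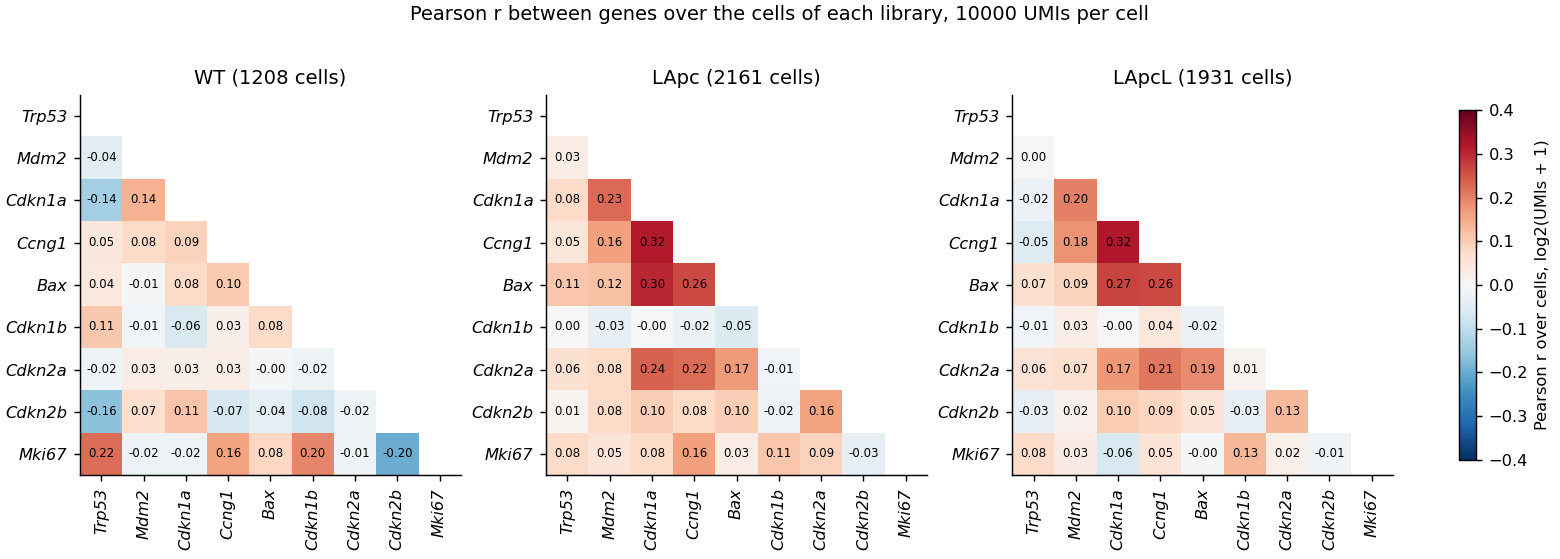
Pearson r over cells between each pair of the 8 genes and Mki67 in WT (1208 cells), LApc (2161) and LApcL (1931), on log2(UMIs + 1) at 10000 UMIs per cell; color runs from blue (-0.4) to red (0.4). Mdm2, Cdkn1a, Ccng1, Bax and Cdkn2a form a block of positive values in LApc and LApcL (Cdkn1a with Ccng1 0.32 in both), and Cdkn1b stays near 0 with that block. Cdkn2b is positive with each gene of the block too, from 0.08 to 0.16 in LApc and from 0.02 to 0.13 in LApcL.

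For each gene positive in at least 10% of cells in 2 or more libraries, the genes most like it were ranked by their lowest r over those libraries. For Trp53 they were Ptma (lowest r 0.22), Ranbp1 (0.20) and Ran (0.19), for Cdkn1a Areg (0.21), Anxa2 (0.17) and 2200002D01Rik (0.16), and for Cdkn1b Cenpf (0.13), Cenpe (0.11) and Mki67 (0.11), over 3 libraries and 4401 genes. For Mdm2 they were Trp53inp1 (0.15), Cdkn1a (0.14) and Klf6 (0.11), for Ccng1 Rps27l (0.13), Gdf15 (0.11) and Bax (0.10), and for Bax Ppia (0.19), Rps27l (0.19) and Ran (0.18). Cdkn2a, over LApc and LApcL and 5772 genes, was most like Msln (0.23), Ccng1 (0.21) and Anxa1 (0.21). Cdkn2b, over WT and LApc and 4494 genes, was most like F3 (0.15), Rhoc (0.14) and Rhou (0.13).

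Among the 38 other p53 targets, 37 could be compared, and 23 were past 1.5-fold higher and 5 lower in LApc than in WT, with a median log2 ratio of 0.93 where that of all genes was 0.46 and 44% of all genes were higher and 14.9% lower. Phlda3 stood at 80.5 against 4.72 CPM, Dcxr at 98.8 against 15.6, Epha2 at 50.2 against 9.44 and Eda2r at 9.995 against 0.579. Lower in LApc were the death receptor gene Fas (1.25 against 7.86 CPM), Pmaip1, which promotes cell death (73.0 against 224), Sesn1 (6.29 against 15.98) and Ephx1 (51.4 against 86.3), whose log2 ratio turned from -0.74 to 0.85 without enterocyte-rich cells. Without those cells 18 were higher and 4 lower, with a median of 0.58 where that of all genes was 0.27. With median-of-ratios scaling 17 were higher and 8 lower, where 24.7% and 24.9% of all genes were. These shares over all genes, 44% and 14.9%, 32.7% and 14.5% without enterocyte-rich cells, and 24.7% and 24.9% with the other scaling, also stand behind the lists below.

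From LApc to LApcL 4 of the 37 were higher and 4 lower, with a median of -0.04, where 7.69% of all genes were higher and 9.57% lower with a median of 0.02, so the count of higher targets is near that of all genes. With median-of-ratios scaling 4 were higher and 6 lower, where 7.03% and 9.78% of all genes were, shares that also stand behind the counts from LApc to LApcL under that scaling below. Ddit4l stood at 14.8 CPM in LApcL against 6.06 CPM in LApc, and Apaf1, which starts the caspase cascade, at 55.0 against 32.7. Btg2, which slows proliferation, stood at 219 against 380 CPM, and Bbc3, a promoter of cell death, at 22.8 against 38.3. Against WT, LApcL had 22 higher and 7 lower, where 44.5% and 15.9% of all genes were. Without enterocyte-rich cells 20 were higher and 4 lower, where 33% and 14.7% of all genes were. With median-of-ratios scaling 17 were higher and 9 lower, where 24.7% and 26.1% of all genes were.

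Among 17 regulators of p53, 15 could be compared, and 9 were higher and 0 lower in LApc than in WT, including Trp53bp1 (21.5 against 5.79 CPM), Ezh2 (128 against 41.2) and the checkpoint kinase gene Chek1 (11.3 against 4.64), and 5 were higher with median-of-ratios scaling. Without enterocyte-rich cells 3 of the 15 were higher, with a median log2 ratio of 0.28 where that of all genes was 0.27. From LApc to LApcL E2f1 (22.9 against 13.6 CPM) and Hipk2 (127 against 83.8) were the 2 of 15 that were higher, where 7.69% of all genes were, and 1 was with median-of-ratios scaling. In the Bcl2 family, to which Bax belongs, 7 of 10 were higher and 0 lower in LApc than in WT, where 44% and 14.9% of all genes were, and 6 and 1 with median-of-ratios scaling. These included the death-promoting Bik (11.7 against 0.414 CPM) and Bcl2l11 (48.5 against 13.2) as well as the protective Bcl2 (20.1 against 4.72).

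Of 10 other cell cycle inhibitors 5 were higher and 2 lower in LApc than in WT, where 44% and 14.9% of all genes were, with a median log2 ratio of 0.43 beside 0.46 for all genes. With median-of-ratios scaling 2 were higher and 3 lower. Cdkn1c, the remaining Cip/Kip gene, stood at 18.6 CPM in WT, 202 CPM in LApc and 35.1 CPM in LApcL. Gadd45g, a gene of growth arrest and stress, stood at 33.0, 239 and 27.9 CPM. They were the 2 of the 10 past 1.5-fold between LApcL and LApc, both lower, where 9.57% of all genes were. In LApc they were higher in Npy-positive than in Npy-zero cells, with 420 against 167 CPM for Cdkn1c and 423 against 210 CPM for Gadd45g, a split looked at after their values had been seen, and Npy-zero LApc cells still stood above LApcL. Gadd45a, a p53 target of the same family, was lower in LApc than in WT (41.0 against 187 CPM), as was Rb1 (16.5 against 33.2).

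A list of 14 genes was compared in the same way. It held cyclins and cyclin-dependent kinases, the proteins these inhibitors act on, together with Skp2, part of a ubiquitin ligase, and Cks1b, a subunit that binds the kinases. Of the 14 genes 10, Skp2 and Cks1b among them, were higher and 0 lower in LApc than in WT, where 44% and 14.9% of all genes were. Without enterocyte-rich cells 6 were higher and 1 lower, with a median log2 ratio of 0.24 beside 0.27 for all genes, and with median-of-ratios scaling the counts were also 6 and 1. Ccnd1 stood at 45.6, 306 and 369 CPM in WT, LApc and LApcL, and Cdk6, a kinase that Ink4 proteins bind, at 45.7, 186 and 363 CPM. From LApc to LApcL 5 of 14 were higher and 0 lower, where 7.69% and 9.57% of all genes were, among them Cdk1 (63.9 against 37.7 CPM) and Ccna2 (50.1 against 32.7), and 2 were higher with median-of-ratios scaling, where 7.03% of all genes were. Beside the same shares of all genes, 10 of 13 genes of the G2 and M phases were higher and 0 lower in LApcL than in LApc (9 and 0 with median-of-ratios scaling), and of 14 genes of S phase 7 were higher and 0 lower under either scaling. Of 10 immediate early and heat shock genes 1 was higher and 3 were lower, Atf3 (652 against 1098 CPM), Jun (763 against 1169) and Junb (375 against 597). An r of 0.1 or more with Cdkn1a was found for 6 of these 10 genes over LApcL cells, where 4.26% of all genes had one, for 1 of 9 over LApc cells (3.7%) and for 3 of 8 over WT cells (9.73%), where Atf3 had r = 0.23.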

How the data were processed

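The study made droplet-based 3′ single-cell RNA-seq libraries from organoids of 3 genotypes. The authors deposited whole-number UMI counts per gene and barcode for each library, not normalized. Per the file headers these counts come from Cell Ranger 6.0.1, whereas the submitters' processing notes name version 2.1.1 (build mm10, which is GRCm38). Cells were selected as described in the report, after the study's limit of 20% mitochondrial UMIs, and thinned to 10000 UMIs each without replacement (numpy 2.4.6, seed 1). Levels were summed UMIs per 1000000 (CPM). Exact intervals (scipy 1.17.1) used the Poisson distribution for levels, the Clopper-Pearson method for shares and a binomial conditional on the summed UMIs for ratios. Calls used log2(CPM + 1) and 1.5-fold. Correlations used log2(UMIs + 1). Depth was 12080000, 21610000 and 19310000 UMIs after thinning in WT, LApc and LApcL. Replicates were absent, so no p-values were computed.

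The 8 genes and the gene lists were chosen with earlier results of these data known. Named genes of a list were the 4 highest and 4 lowest log2 ratios past 1.5-fold with at least 5 CPM in 1 library, of which the text gives a part. Scrublet (scanpy 1.11.5) called 4, 0 and 3 doublets in over 10000 barcodes per library and so did not work, and as an alternative the highest scores were removed at 0.8% per 1000 barcodes (129, 406 and 362 cells). Thinning, calls and intervals were tested on simulated counts. The enterocyte cut is 1% of UMIs. Gene positions and transcripts are from GENCODE M21 and promoter windows from RefSeq. No reads, exons or alleles were analysed here.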

Additional observations from a re-analysis of the deposited data

Results flagged for a closer look

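Cdkn1a differed in its relation to Mki67 between libraries. The level in Mki67-positive cells was 1.24 times that in Mki67-zero cells in LApc, 0.829 times in LApcL and 0.898 times in WT, with counting intervals on opposite sides of 1. Mdm2 did so between LApc (1.20) and WT (0.803). With 1 library per group these differences between libraries were not tested. Variance over mean of Cdkn1a was 2.58, 7.34 and 4.92 in WT, LApc and LApcL. That of Mdm2 was 1.39 in WT and 2.16 in LApc, where pure counting noise gives 1. The counting intervals are therefore too narrow for contrasts of these genes between sets of cells. Over the alternatives the log2 ratio of Cdkn1a stayed above 0 in LApc (0.06 to 0.36) and below 0 in LApcL (-0.37 to -0.22), while in WT it turned to 0.08 without enterocyte-rich cells and to 0.04 at 5000 UMIs. That of Mdm2 in LApc ranged from -0.09 to 0.30.

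Barcodes left out of the report also carried these genes. Barcodes found in all 3 libraries, thinned to 1000 UMIs, had 490 CPM of Cdkn1a in WT, 460 CPM in LApc and 449 CPM in LApcL, above the 238, 381 and 282 CPM of the cells used at the same depth. Also above the cells used were Trp53 in WT (91.2 against 45.5 CPM), Mdm2 in WT (65.2 against 40.6) and Cdkn1b in LApc (62.7 against 43.0). Below the cells used were Trp53 in LApc (94.9 against 153 CPM) and LApcL (86.3 against 146), Bax in every library (107 against 147 CPM in WT, 100.6 against 306 in LApc and 123 against 302 in LApcL) and Ccng1 in every library (13.5 against 42.2, 15.4 against 90.2 and 10.9 against 112 CPM). These barcodes held 4.28, 2.21 and 0.838 CPM of Cdkn2b. Barcodes over the mitochondrial limit had 115 CPM of Mdm2 in LApc against 72.2 CPM in the cells used, and less Bax in every library (48.5, 144 and 127 CPM in WT, LApc and LApcL).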

How the results depend on the processing

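With 1 library per group no difference has a replicate check. No paired analysis was possible because each group has 1 library and no replicate numbers. Log2 ratios of the 8 genes that were called past 1.5-fold kept their sign under every alternative run, and 462 of 600 values of log2 ratios lay inside the main counting interval. Of the counts of genes past 1.5-fold, LApc against WT went from 7 to 4 with median-of-ratios scaling, to 5 with a 2-fold call and to 6 with the highest doublet scores removed or a pseudocount of 10 CPM, and LApcL against LApc from 1 to 0 with a pseudocount of 10 CPM, with a 2-fold call or with the highest doublet scores removed. LApc against WT went up to 8 without enterocyte-rich cells. LApcL against WT went from 5 to 7 without those cells, to 6 with at most 10% mitochondrial UMIs and to 4 with a 2-fold call. With at most 10% mitochondrial UMIs Cdkn1b was past 1.5-fold lower than in WT, both in LApc (log2 ratio -0.81) and in LApcL (-0.75). In the contrast by Mki67 in WT the count went from 4 to 1 without enterocyte-rich cells and to 2 with a 2-fold call, and to 3 with the second seed, no mitochondrial limit, the highest doublet scores removed or Top2a. In LApc it went from 2 to 1 without thinning, without Npy-positive cells (added after the data were seen), with a pseudocount of 10 CPM or with Top2a in place of Mki67, and to 0 at 5000 UMIs, with the second seed, with no mitochondrial limit or with a 2-fold call. In LApcL it went from 0 to 1 at 5000 UMIs, at a minimum of 20000 UMIs or with no mitochondrial limit. The cause was not tested. The r of Cdkn1a with Ccng1 ranged from 0.26 to 0.43 in LApc, from 0.21 to 0.45 in LApcL and from -0.01 to 0.14 in WT, lowest at 5000 UMIs in the first 2. Depth limits Cdkn2a, whose WT value rests on 1 UMI.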
